A study of Homo sapiens with 16 samples.

Results

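The comparison described here is that between day 10 and day 8 in Jurkat cells that carry a control short hairpin RNA and no knockdown. Its members are the 4 Jurkat libraries that the labels call sh-NC, 2 at day 8 and 2 at day 10, out of 16 libraries in all, and they were joined by Ensembl gene identifier from 2 tables of counts. The series measured messenger RNA in 2 T cell leukaemia lines, Jurkat and 6T-CEM, with sh-NC or with a hairpin against SH2D1A (sh-SH2D1A), at days 8 and 10 in Jurkat and at days 5 and 10 in 6T-CEM. Jurkat is an established human line from a T cell acute lymphoblastic leukaemia (T-ALL), and every cell compared here had received a hairpin, so no library without one enters the comparison. The labels name no event from which the days are counted, no clone, and no separate cultures for the 2 libraries of a day. A p-value therefore sets the change against the spread between these libraries, and that spread may be technical. Each day also has a deposited table of its own, so a change with day and any difference between the tables cannot be told apart.

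A leukaemic T cell line in culture grows and divides without pause, and it draws on glucose, lipids and new ribosomes to do so. Glycolysis turns glucose into pyruvate and lactate, and many of its genes answer to the hypoxia-inducible factors and to MYC. MYC also drives the genes that assemble ribosomes and make polyamines, while genes of late G2 and mitosis are held back early in the cell cycle by the DREAM complex through the CHR element of their promoters. NOTCH1, frequently mutated in T-ALL, keeps thymocyte genes such as PTCRA and DTX1 on.

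The 4 libraries held 31645599 and 33788024 counts at day 8 and 29469370 and 29026797 at day 10, and levels are given as CPM, counts scaled to library size; where a gene has no count, its true count may be as high as 3 (0.0888 to 0.103 CPM, counting error only). Genes of the mitochondrial genome took 3.95 and 4.36% of the counts at day 8 and 4.15 and 4.45% at day 10. SH2D1A, the adaptor of SLAM receptors that the other hairpin targets, was at 160 and 172 CPM at day 8 and at 172 and 199 CPM at day 10 in these control cells (log2 change 0.16 ± 0.09 SE, edgeR adjusted p = 0.34). Defining T cell genes were present in every library. CD3E, a chain of the T cell receptor complex, was at 427 and 444 CPM at day 8 and at 534 and 516 CPM at day 10, and LCK, the kinase that starts its signal, was at 693 and 760 against 855 and 823 CPM. CD8A lay between 0.513 and 1.22 CPM in the 4 libraries and CD4 between 20.9 and 30.3 CPM. Summed over 21 T cell markers the level was 4532 and 4449 CPM at day 8 and 5045 and 4818 CPM at day 10.

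Promoter sequences are shown first for 8 genes that changed, because they carry the 3 short motifs whose shares among genes that rose and fell are given after them. They were read from RefSeq (GRCh38.p14), whose table held a window of 300 bases, from 250 before to 50 after the start, for 11469 of the 19067 genes tested. Each line gives 120 bases upstream of the start that RefSeq gives for the gene, 5′ to 3′ on its strand, with the motif named for that gene in capitals on either strand. The first 3, from chr17:28577026-28577145 (minus strand), chrX:78104014-78104133 (plus) and chr11:18394439-18394558 (plus), belong to glycolytic genes that fell and hold ACGTGC or its reverse complement GCACGT, the core of the hypoxia response element. The next 2, from chr1:11060148-11060267 (minus) and chr12:101279985-101280104 (plus), belong to genes of polyamine synthesis and ribosome assembly that fell, with the E-box CACGTG, which MYC and MAX can bind. The last 3, from chr10:128126424-128126543 (minus), chr14:55191625-55191744 (minus) and chr17:40417978-40418097 (minus), belong to mitotic genes that rose, with TTTGAA or TTCAAA, the CHR element.
ALDOC: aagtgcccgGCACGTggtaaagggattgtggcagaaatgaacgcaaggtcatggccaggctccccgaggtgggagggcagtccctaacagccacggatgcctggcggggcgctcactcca
PGK1: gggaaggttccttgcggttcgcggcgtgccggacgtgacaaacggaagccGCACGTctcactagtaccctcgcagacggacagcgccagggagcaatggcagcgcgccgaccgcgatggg
LDHA: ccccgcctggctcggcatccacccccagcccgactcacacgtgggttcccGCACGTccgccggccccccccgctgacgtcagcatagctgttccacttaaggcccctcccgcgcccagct
SRM: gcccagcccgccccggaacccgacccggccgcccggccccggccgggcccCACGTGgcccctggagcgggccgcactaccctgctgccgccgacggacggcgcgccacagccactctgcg
UTP20: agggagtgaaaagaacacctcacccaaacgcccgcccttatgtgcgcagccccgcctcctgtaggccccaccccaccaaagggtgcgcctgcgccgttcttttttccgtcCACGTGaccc
MKI67: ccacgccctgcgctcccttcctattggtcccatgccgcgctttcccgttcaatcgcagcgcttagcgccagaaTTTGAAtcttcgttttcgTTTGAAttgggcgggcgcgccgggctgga
DLGAP5: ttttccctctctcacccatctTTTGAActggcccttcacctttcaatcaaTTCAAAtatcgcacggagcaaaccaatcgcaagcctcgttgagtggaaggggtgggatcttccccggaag
TOP2A: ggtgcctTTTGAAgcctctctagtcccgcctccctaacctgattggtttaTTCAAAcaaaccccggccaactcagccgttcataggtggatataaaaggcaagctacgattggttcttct
The starts of RefSeq and GENCODE differ for some genes: a GENCODE gene spans all of its transcripts, and it contains the bases shown for ALDOC, PGK1 and LDHA and part of those for DLGAP5. ACGTGC and CACGTG share letters, so that a run of CACGTGC counts for both. The bases shown for ALDOC and LDHA also hold CACGTG, which is not marked there.

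CACGTG stood in the window of 10.1% of the 11469 genes, in 21.9% of the 242 genes that fell and in 8.55% of the 269 genes that rose. In the list of MYC targets and ribosome assembly it stood in 9 of 23 members that fell. ACGTGC was in 8.75% of all windows, in 16.5% of those of genes that fell and in 6.32% of those of genes that rose, and among members of the hypoxia list that fell 6 of 7 held it. TTTGAA was in 9.82% of all windows, in 21.2% of those of genes that rose and in 7.44% of those of genes that fell, and 19 of the 24 mitotic genes that rose and have a window held it. A match describes these letters only and says nothing of binding. The share among members of these lists that were not called is not given, so the counts within lists say nothing of the day change. Lists and motifs were chosen with earlier results of these data known.

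Between the days 737 of 19067 tested genes passed an adjusted p of 0.05 in edgeR's quasi-likelihood test, which is 3.87%, with 400 higher at day 10 (2.1%) and 337 lower (1.77%). Most changes were small. Of the 737, 102 reached a 2-fold difference, 57 of them higher and 45 lower, and the median log2 change over all genes tested was -0.0022. The plot of change against level shows the enzymes of glycolysis at the lower edge among highly expressed genes. The count rested on the libraries and the filter: it was 454 without replicate 1 and 307 without replicate 2 of day 10, and 0 when genes with low counts were kept in the test, where 3770 genes had an unadjusted p under 0.05, against 1375 calls by DESeq2 with the filter. Of the 135 called genes named in the text, 71 lost their call without at least 1 of the 4 libraries, at adjusted p of up to 0.264, and none changed sign. The median move of their log2 change was 0.04.

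**Figure D1:**
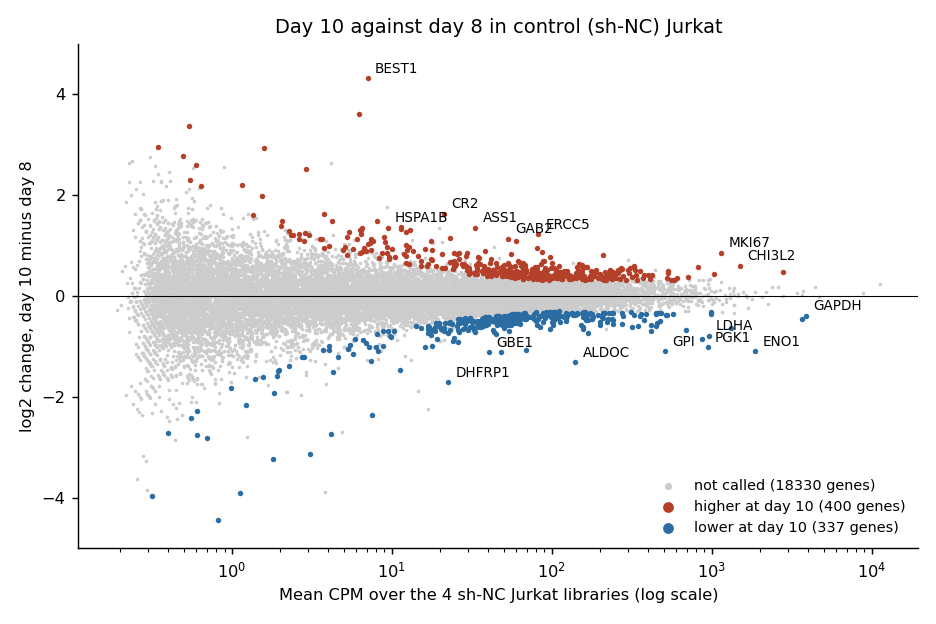
Each point is a gene tested in the 4 sh-NC Jurkat libraries, with its mean CPM on a log axis and its log2 change from day 8 to day 10. The 400 genes called higher are red and the 337 called lower are blue, and 5 genes beyond 5 on the log2 scale are outside the plot. ENO1, PGK1, GPI and ALDOC lie about 1 log2 unit or more below 0.

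Glycolysis fell. Of 23 tested genes of glucose uptake, glycolysis and lactate export, 14 fell and none rose, 22 had a negative change, and the median log2 change was -0.50. Read along the pathway, SLC2A1, the main glucose importer, was at 91.1 and 96.7 CPM at day 8 and at 68.0 and 65.0 CPM at day 10. HK2, the hexokinase that traps glucose as its phosphate, was at 107 and 95.5 CPM and then at 66.4 and 66.2 CPM. GPI, which turns glucose 6-phosphate into fructose 6-phosphate, was at 671 and 714 CPM at day 8 and at 324 and 324 CPM at day 10, a log2 change of -1.10 ± 0.08 (SE, edgeR adjusted p = 0.000104). In each of these genes both libraries of day 8 were above both of day 10.

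The aldolases, which split the sugar, fell too. ALDOC (chr17:28573115-28577264, hg38) was at 191 and 209 CPM at day 8 and at 81.5 and 79.2 CPM at day 10, with a log2 change of -1.31 ± 0.08 (SE, edgeR adjusted p = 4.16e-05). ALDOA was at 1084 and 1147 CPM at day 8 and at 645 and 597 CPM at day 10. The replicates of a day differed far less than the days in both genes, and ALDOC had the largest change of the list.

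At the later steps TPI1, which interconverts the triose phosphates, fell by 0.57 on the log2 scale, GAPDH by 0.39 and PGAM1 by 0.50. PGK1, which makes the first ATP of the pathway, was at 1236 and 1285 CPM at day 8 and at 632 and 612 CPM at day 10 (log2 change -1.02 ± 0.07 SE, edgeR adjusted p = 0.000104). ENO1 (chr1:8861000-8879250), the enolase, was at 2482 and 2621 CPM and then at 1243 and 1148 CPM, a 2.13-fold fall. PKM, which forms pyruvate, went from 1572 and 1619 to 1052 and 1007 CPM. LDHA, which turns pyruvate into lactate, had 1164 and 1254 CPM at day 8 and 675 and 728 CPM at day 10 (log2 change -0.78 ± 0.08 SE, edgeR adjusted p = 0.00103). None of these genes had a day 10 library within the range of day 8.

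Both regulators of phosphofructokinase on the list fell, PFKFB4 from 33.2 and 34.6 to 16.9 and 19.2 CPM (log2 change -0.91) and PFKFB3 by 0.35 on the log2 scale. Phosphofructokinase itself, the committed step, did not pass the test. Its genes PFKL, PFKP and PFKM had log2 changes of -0.19, -0.17 and -0.26. Other isoforms of enzymes that fell were also not called: HK1 stood at -0.25, ENO2 at -0.12 and LDHB at -0.22, and SLC2A3, a second glucose importer, at 0.05. Leaving out single libraries left 12 or 13 calls: PFKFB3 lost its call without any one of the 4, and GAPDH without either of day 10.

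GBE1, the branching enzyme of glycogen synthesis, is among the 15 largest falls. It was at 54.4 and 56.1 CPM at day 8 and at 25.2 and 25.8 CPM at day 10, a 2.16-fold fall (edgeR adjusted p = 0.000248). Both libraries of day 10 were under both of day 8.

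**Figure D2:**
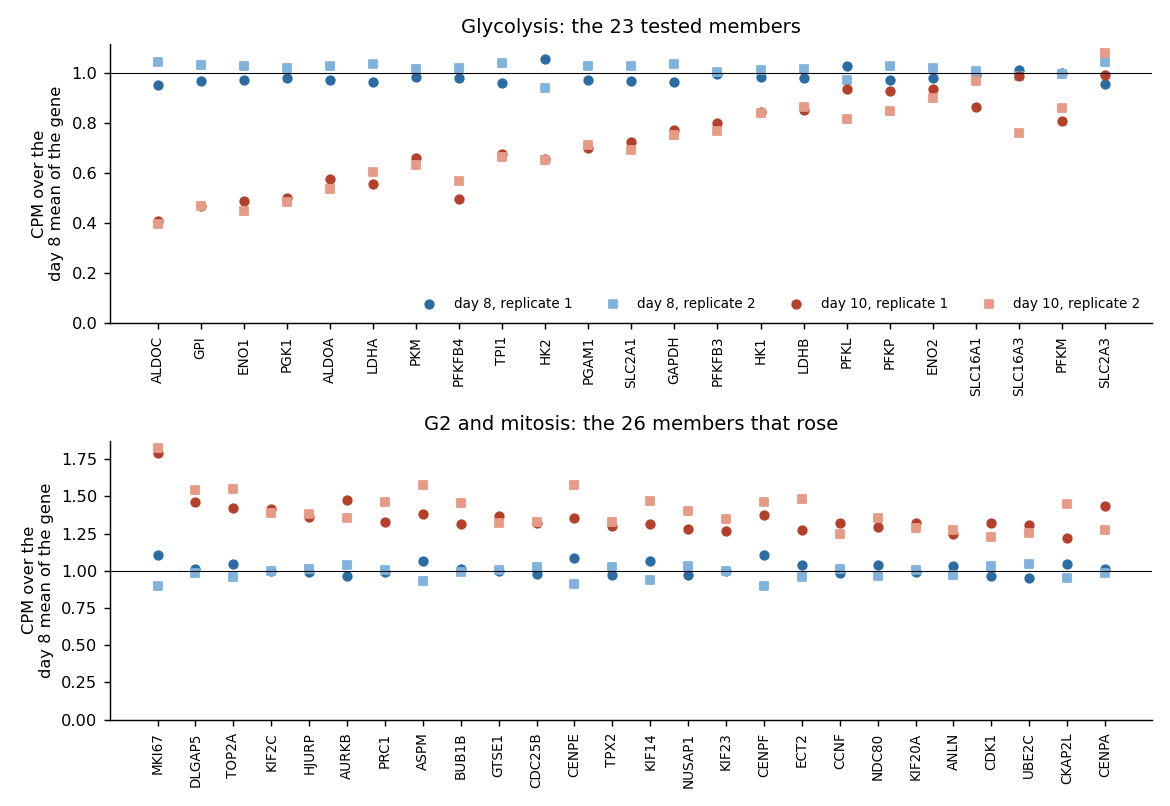
Points give the CPM of each of the 4 libraries over the day 8 mean of the gene, for the 23 tested glycolysis genes (top) and for the 26 genes of G2 and mitosis that rose (bottom), each ordered by p-value. From ALDOC to PFKFB3, the 14 that fell, both day 10 libraries lie under both day 8 libraries, and MKI67 stands highest in the lower panel.

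Targets of the hypoxia-inducible factors beyond glycolysis moved in part. Of 31 tested members of a hypoxia list, which shares ALDOC and SLC2A1 with glycolysis, 8 fell and none rose, with a median log2 change of -0.14. FAM162A, a mitochondrial protein induced by hypoxia, was at 90.9 and 96.7 CPM at day 8 and at 45.4 and 44.5 CPM at day 10 (log2 change -1.06 ± 0.08 SE, edgeR adjusted p = 0.000173), although it overlaps WDR5B on the opposite strand and the strand setting of the counts is not given. BNIP3, a receptor of mitophagy, was at 114 and 121 CPM and then at 78.9 and 84.7 CPM. EGLN1, an oxygen sensor that marks the factors for destruction, fell by 0.34 on the log2 scale. The best known target, VEGFA, was at 61.5 and 58.8 CPM at day 8 and at 68.2 and 65.9 CPM at day 10 (log2 change 0.16, edgeR adjusted p = 0.323), and HIF1A, a subunit of the factor, had a log2 change of 0.03. Without replicate 2 of day 8 the list had 5 calls, and it had 4 without either library of day 10, and EGLN1 lost its call without any one of the 4.

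Ribosome assembly and MYC target genes fell as a block of small changes. All 42 tested members of that list had a negative change, 27 of them fell, none rose, and the median log2 change was -0.37. GNL3, or nucleostemin, a nucleolar GTPase, was at 120 and 121 CPM at day 8 and at 72.2 and 79.9 CPM at day 10 (log2 change -0.66 ± 0.08 SE, edgeR adjusted p = 0.00329). NOLC1, a scaffold of the nucleolus, was at 238 and 243 CPM and then at 156 and 166 CPM. MRTO4, a ribosome assembly factor, was at 41.0 and 41.3 CPM and then at 26.7 and 23.5 CPM, a 1.64-fold fall. For each of the 3 the libraries of one day were closer together than the days.

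ODC1 and SRM, which carry out successive steps of polyamine synthesis, fell by 0.51 and 0.58 on the log2 scale, ODC1 from 225 and 245 to 167 and 164 CPM. POLR1B, a subunit of RNA polymerase I, which makes ribosomal RNA, was at 51.0 and 43.7 CPM at day 8 and at 29.3 and 35.5 CPM at day 10. NPM1, the abundant nucleolar chaperone, fell by 0.33. MYC itself was at 198 and 212 CPM at day 8 and at 188 and 181 CPM at day 10 (log2 change -0.15 ± 0.08 SE, edgeR adjusted p = 0.297). Of the 79 genes of the ribosomal proteins themselves edgeR called 0, as did DESeq2, and 1 had an unadjusted p under 0.05 in edgeR; the median was -0.03. Without replicate 1 of day 10 the calls among them were 2. The 27 calls became 15 without replicate 2 of day 8, 14 without replicate 1 of day 10 and 9 without replicate 2 of day 10. NPM1 lost its call without each of these 3, SRM without replicate 2 of day 10, and POLR1B without replicate 1 of either day.

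Of 32 genes of nucleotide and one-carbon metabolism 4 fell, where 1.77% of all genes tested fell. All 4, PAICS, ATIC, PFAS and ADSL, encode enzymes of purine synthesis. PAICS was at 436 and 448 CPM at day 8 and at 305 and 328 CPM at day 10, a log2 change of -0.48 ± 0.08 (SE, edgeR adjusted p = 0.0116). Without replicate 2 of day 8 or either library of day 10 that list had 2 calls, and ADSL lost its call without any one of the 4 libraries. The proteasome list had 5 falls of 31, with PSMA3, a subunit of its catalytic core, at -0.44 and a negative change in all 31 members. Its count was 1 without replicate 2 of day 8 or replicate 2 of day 10.

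MIR17HG, the host transcript of the miR-17 to miR-92 cluster and a target of MYC, was at 10.3 and 10.9 CPM at day 8 and at 5.10 and 5.38 CPM at day 10 (log2 change -1.02 ± 0.17 SE, edgeR adjusted p = 0.0135). This is the level of the host transcript, not of any mature miRNA. Its call was lost without either library of day 10.

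**Figure D3:**
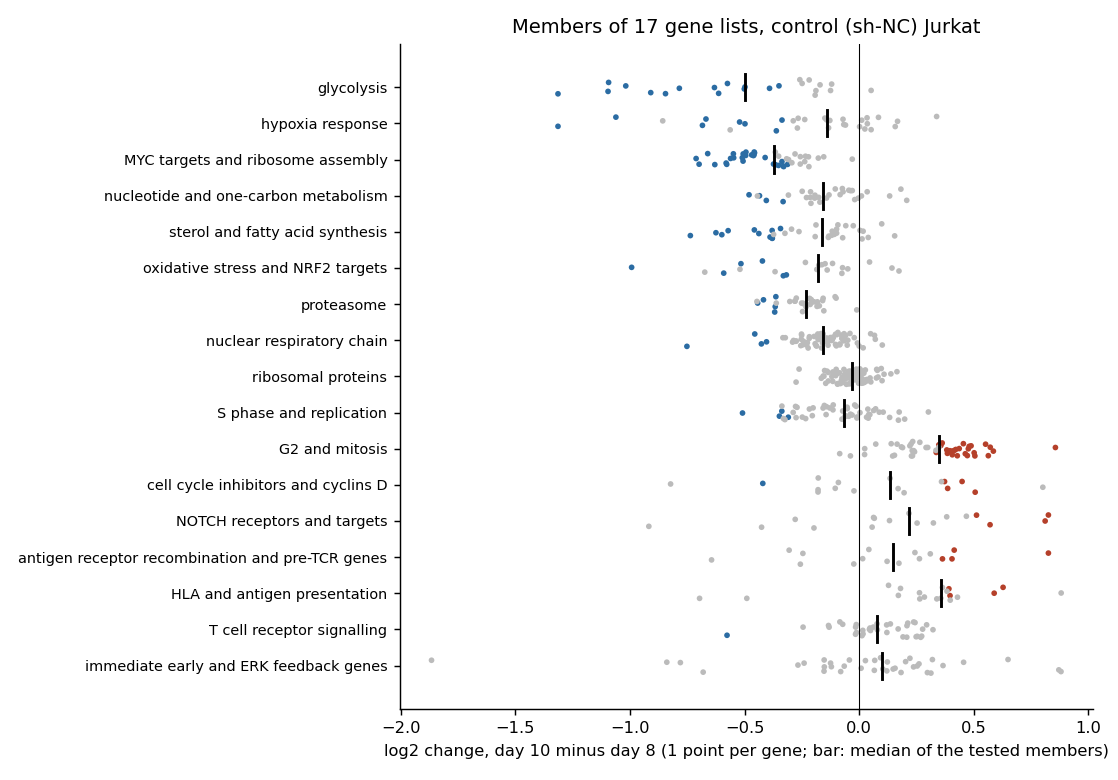
Each point is the log2 change of a tested gene of 17 lists between day 8 and day 10, red where it rose, blue where it fell and grey where it was not called, and the black bar is the median of the list. Glycolysis and the MYC and ribosome assembly list lie to the left with medians of -0.50 and -0.37, G2 and mitosis lies to the right with 0.35, and the ribosomal proteins lie near 0.

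Genes of G2 and mitosis rose. Of 50 tested, 26 rose and none fell, 48 had a positive change, and the median log2 change was 0.35. MKI67, the proliferation antigen that coats mitotic chromosomes, was at 901 and 731 CPM at day 8 and at 1463 and 1492 CPM at day 10, a log2 change of 0.86 ± 0.10 (SE, edgeR adjusted p = 0.00227). TOP2A, which untangles sister DNA, was at 695 and 635 CPM and then at 947 and 1030 CPM. DLGAP5, a spindle protein, was at 65.8 and 64.3 CPM and then at 95.1 and 100 CPM. MKI67 had the widest spread at day 8, and the days did not overlap in any of the 3.

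Among the mitotic genes that rose, KIF2C, a kinesin that takes microtubules apart, was at 146 and 146 CPM at day 8 and at 207 and 204 CPM at day 10 (log2 change 0.49 ± 0.07 SE, edgeR adjusted p = 0.00886), and AURKB, the kinase of the chromosomal passenger complex, was at 94.7 and 102 against 145 and 134 CPM. BUB1B of the spindle checkpoint rose by 0.47 and CDK1, the mitotic kinase, by 0.35. CCNB1, the cyclin of CDK1, was at 100 and 105 CPM at day 8 and at 114 and 112 CPM at day 10, and PLK1 at 67.1 and 76.8 against 85.2 and 79 CPM; neither passed the test, with edgeR adjusted p of 0.332 and 0.279. The 26 calls became 16 without replicate 2 of day 8 and 9 without replicate 2 of day 10. CDK1 lost its call without replicate 1 of day 8 or either library of day 10, and BUB1B without replicate 2 of day 10.

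Of 52 tested genes of S phase and replication 4 fell and none rose, with a median of -0.07: UNG, which removes uracil from DNA, SLBP, which binds histone messages, and the helicase subunits MCM5 and MCM6. UNG was at 129 and 135 CPM at day 8 and at 94.7 and 90.4 CPM at day 10 (log2 change -0.51 ± 0.08 SE, edgeR adjusted p = 0.00864). Leaving out replicate 2 of day 8 or either library of day 10 left 1 call, that of UNG, whereas DESeq2 called 11 of the list. Among all genes tested 1.77% fell.

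Among 17 cell cycle inhibitors and D cyclins with their kinases, 4 rose and 1 fell, where 3.87% of all genes tested were called. CDKN1B, the inhibitor p27, was at 98.7 and 98.0 CPM at day 8 and at 138 and 131 CPM at day 10 (log2 change 0.45 ± 0.08 SE, edgeR adjusted p = 0.0127). The INK4 inhibitors CDKN2D and CDKN2C rose by 0.51 and 0.37 and the cyclin CCND3 by 0.39, while CDK4, the partner that those inhibitors bind, was at 183 and 177 CPM and then at 137 and 132 CPM. The day 8 and day 10 values were apart in each. Without replicate 1 of day 10 this list had 2 calls, with those of CDKN2D, CDKN2C and CCND3 lost, and CDK4 lost its call without replicate 2 of that day. In bulk RNA, more cells in a phase and more message per cell cannot be told apart.

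Sterol synthesis fell. Of 34 tested genes of sterol and fatty acid synthesis 11 fell and none rose, with a median of -0.16, and all of the 11 but TMEM97 encode enzymes between acetyl-CoA and cholesterol. HMGCS1, which makes HMG-CoA, was at 533 and 552 CPM at day 8 and at 331 and 385 CPM at day 10 (log2 change -0.60 ± 0.09 SE, edgeR adjusted p = 0.00777). LSS, which closes the sterol rings, was at 216 and 204 CPM and then at 126 and 126 CPM, a 1.67-fold fall. ACAT2, at the entry of the pathway, and DHCR7, at its end, fell by 0.57 and 0.46 on the log2 scale. MVD, IDI1 and FDPS, which make and join the isoprenoid units, fell by 0.44, 0.38 and 0.34.

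Other members were not called. SREBF2, the factor that drives the pathway, had a log2 change of 0.00, and FASN and SCD, of fatty acid synthesis, of -0.13 and -0.12. Of 9 genes of the liver X receptors and cholesterol export 2 rose, against 2.1% of all genes tested. ABCG1, an exporter of cholesterol, was at 48.6 and 45.2 CPM at day 8 and at 71.7 and 69.6 CPM at day 10 (log2 change 0.59 ± 0.09 SE, edgeR adjusted p = 0.00799), and NR1H2, one of the receptors, rose by 0.44. The 11 sterol calls became 6 without replicate 2 of day 8, 7 without replicate 1 of day 10 and 4 without replicate 2 of day 10. NR1H2 lost its call without either library of day 8 or replicate 1 of day 10.

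Some redox and mitochondrial genes fell. Of 22 NRF2 and oxidative stress genes 6 fell, led by TXNRD1, thioredoxin reductase, at 404 and 430 CPM at day 8 and 270 and 284 CPM at day 10 (log2 change -0.59 ± 0.08 SE, edgeR adjusted p = 0.00452). GSR, glutathione reductase, was at 117 and 121 CPM and then at 82.6 and 84.2 CPM. That list had 3 calls without replicate 2 of day 8 and 2 without either library of day 10. Of 69 nuclear genes of the respiratory chain 4 fell, with ATP5MC1, a subunit of the ATP synthase ring, from 52.1 and 60.5 to 33.7 and 33.2 CPM, and 64 of the 69 had a negative change. Their count was 1 without replicate 2 of day 8 and 2 without either library of day 10, and 1.77% of all genes tested fell. Of 15 genes of the mitochondrial genome MT-RNR1, the small ribosomal RNA, was the single call, at 826 and 865 CPM and then at 521 and 540 CPM, while MT-RNR2, the large one, had a log2 change of 0.09. Without either library of day 8 these genes had 3 calls. Beside the 3.87% called over all genes, the call of MT-RNR1 is given as a gene and says nothing of that list.

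Chaperones split in their direction. Of 28 heat shock genes and chaperones 4 rose and 5 fell, where 3.87% of all genes tested were called. The stress-inducible HSP70 genes were low and rose: HSPA6 was at 1.07 and 0.65 CPM at day 8 and at 4.75 and 5.14 CPM at day 10 (log2 change 2.53 ± 0.31 SE, edgeR adjusted p = 0.00315). HSPA1A and HSPA1B are near-identical, so reads can be split between them. Their sum was 8.11 and 8.92 CPM at day 8 and 21.9 and 19.8 CPM at day 10. DNAJB1, their partner, rose by 0.41.

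The constitutive HSPA8 was at 770 and 792 against 782 and 797 CPM and was not called (edgeR adjusted p = 0.935). The members that fell were CCT2 and TCP1, of the chaperonin that folds actin and tubulin, HSPD1 and HSPE1, of the mitochondrial chaperonin, and HSP90AB1. CCT2 was at 276 and 289 CPM at day 8 and at 199 and 207 CPM at day 10. Without replicate 1 of day 10 the list had 5 calls. HSPA1A was lost without that library, DNAJB1 without replicate 2 of day 8, and TCP1, HSPD1, HSPE1 and HSP90AB1 each without 1 library or more. RBM3, a cold-inducible RNA-binding protein on the splicing list, fell from 254 and 265 to 177 and 185 CPM (log2 change -0.52 ± 0.08 SE, edgeR adjusted p = 0.00788). No temperature of the cultures is given in the labels, and any part of temperature in these values was not tested. The heat shock list members HSP90AA1, HSPH1, HSPB1 and DNAJA1 were not called, with log2 changes of -0.03, -0.10, 0.08 and -0.04.

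Some NOTCH and thymocyte genes rose. Of 17 NOTCH receptors and targets 4 rose and none fell, where 2.1% of all genes tested rose. NOTCH1 was at 283 and 243 CPM at day 8 and at 407 and 373 CPM at day 10 (log2 change 0.57 ± 0.09 SE, edgeR adjusted p = 0.0116), and its target DTX1 was at 152 and 153 CPM and then at 279 and 257 CPM (log2 change 0.81). HES4, of the same family as the classical target HES1, rose by 0.51; HES1 was at 20.3 and 24.9 against 32.7 and 29.8 CPM (edgeR adjusted p = 0.0666). The list had 2 calls without replicate 1 of day 10, where HES4 lost its call, and DESeq2 called 7.

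PTCRA, the surrogate chain of the pre-T cell receptor and a NOTCH target, was at 14.2 and 15.4 CPM at day 8 and at 28.7 and 23.7 CPM at day 10, a 1.77-fold rise. It is also 1 of the 4 of 16 genes of receptor recombination and the pre-T cell receptor that rose, against 2.1% of all genes. Another is DNTT, the polymerase that adds bases without a template at V(D)J joints, at 281 and 298 CPM and then at 387 and 384 CPM. ARPP21, a thymocyte RNA-binding protein, rose by 0.40 and CD1E, a lipid-presenting protein of cortical thymocytes, by 0.36. The recombinase genes RAG1 and RAG2 had log2 changes of -0.25 and -0.26 and were not called. Without either library of day 10 this list had 1 call: CD1E and DNTT lost theirs without either, PTCRA without replicate 1 and ARPP21 without replicate 2.

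CD1E was also the 1 call among the 21 T cell markers, and it was lost without replicate 1 of day 8 as well. The shares called among T cell markers (4.76%), thymocyte transcription factors (3.7%), cytokine receptor and STAT genes (3.85%) and T cell receptor signalling genes (2.78%) lay near the 3.87% of all genes, so their single calls are given as genes and say nothing of those lists. Of 27 transcription factors of T-ALL and thymocytes GATA3 was the single rise, from 95.4 and 105 to 138 and 129 CPM (log2 change 0.41), and its call was lost without replicate 1 of either day. Of 26 cytokine receptor and STAT genes STAT5A was the single call, from 131 and 135 to 205 and 190 CPM (log2 change 0.57 ± 0.08 SE, edgeR adjusted p = 0.00552), and it was not called in the fit of all 8 Jurkat libraries. Of 36 genes of T cell receptor signalling 1 fell: THEMIS, a thymocyte adaptor, was at 44.0 and 49.3 CPM and then at 29.9 and 32.6 CPM, a call lost without replicate 1 of day 10. Of 38 immediate early and ERK feedback genes edgeR called 0, with 7 at an unadjusted p under 0.05, and DESeq2 called 1. EGR1 was at 66.8 and 63.6 against 65.4 and 67.4 CPM.

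Of 27 homing and adhesion receptors 2 rose, against 2.1% of all genes tested. ITGA1, the α1 chain of a collagen-binding integrin, was at 58.4 and 52.5 CPM at day 8 and at 103 and 111 CPM at day 10 (log2 change 0.95 ± 0.09 SE, edgeR adjusted p = 0.000462). The chemokine receptor CCR8, among the 15 largest rises, was at 6.70 and 5.05 CPM and then at 11.3 and 13.3 CPM, a 2.09-fold rise, and lost its call without replicate 2 of day 10. Both ITGA1 and CCR8 had their day 10 libraries above those of day 8.

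Some HLA class I genes rose. Of 19 tested HLA and antigen presentation genes 4 rose and none fell, with a median of 0.36. HLA-B was at 113 and 120 CPM at day 8 and at 194 and 165 CPM at day 10 (log2 change 0.63 ± 0.09 SE, edgeR adjusted p = 0.00777), and HLA-E was at 24.3 and 21.9 against 34.6 and 34.8 CPM. HLA-C rose by 0.39 and ERAP1, which trims peptides for class I, by 0.40, whereas B2M (log2 change 0.26, edgeR adjusted p = 0.0834) missed the threshold. HLA genes are alike in sequence, and their reads may have been shared between them. The list had 2 calls without replicate 1 of day 10 and 8 by DESeq2, and each of HLA-C, HLA-E and ERAP1 lost its call without 1 library or more. Of 42 interferon response genes 3 rose, PARP14, OAS3 and IFITM1, with log2 changes of 0.62, 0.49 and 0.55, where 2.1% of all genes tested rose. IFITM1 lost its call without replicate 1 of day 8 or either library of day 10.

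Of 13 tested SLAM receptors and partners 2 rose, against 2.1% of all genes tested. INPP5D, the lipid phosphatase SHIP1, was at 76.8 and 68.2 CPM at day 8 and at 126 and 121 CPM at day 10 (log2 change 0.76 ± 0.08 SE, edgeR adjusted p = 0.00181), and CD84, a receptor that SH2D1A binds, was at 83.9 and 70.7 against 100 and 106 CPM and lost its call without replicate 2 of day 8 or either library of day 10. CHI3L2, a chitinase-like protein without enzyme activity (chr1:111200771-111243440), was at 1154 and 1220 CPM at day 8 and at 1780 and 1817 CPM at day 10 in these control cells, a 1.52-fold rise (log2 change 0.60 ± 0.07 SE, edgeR adjusted p = 0.00339). Its 2 libraries of a day differed by little beside the gap between the days.

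Among the largest rises CR2, the complement receptor CD21 (chr1:207454230-207489895), was at 10.3 and 10.2 CPM at day 8 and at 29.2 and 34.7 CPM at day 10, a 3.11-fold rise (edgeR adjusted p = 0.000237). CR2 and CD79A were the 2 of 6 tested B cell markers that rose, where 2.1% of all genes tested rose. CD79A lost its call without replicate 1 of day 10. Of the other 10 B cell markers none was above 3.22 CPM in any library, and MS4A1 and FCRL1 were at 0 counts in all 4. Summed over the 6 tested, the level was 61.9 and 63.1 CPM at day 8 and 106 and 98.9 CPM at day 10. Markers of myeloid, epithelial, fibroblast and erythroid cells had 0 calls among 5, 4, 3 and 3 tested, by edgeR and by DESeq2, and 1 myeloid marker had an unadjusted p under 0.05 in edgeR.

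ASS1, argininosuccinate synthase, which lets cells make arginine (chr9:130444929-130501274), was at 17.3 and 20.1 CPM at day 8 and at 49.2 and 46.8 CPM at day 10, a 2.57-fold rise (edgeR adjusted p = 0.000219). ASNS, asparagine synthetase, was at 42.7 and 47.3 CPM and then at 62.3 and 71.6 CPM, one of 2 rises and 1 fall among 38 genes of the ATF4 amino acid response. That list had 1 call without replicate 1 of either day, 0 without replicate 2 of day 10 and 13 by DESeq2. Among all genes tested 3.87% were called. GAB2, a docking adaptor of receptor signalling, was at 36.5 and 30.7 CPM at day 8 and at 75.5 and 71.9 CPM at day 10 (log2 change 1.13 ± 0.10 SE, edgeR adjusted p = 0.000442). In all 3 the days were apart by far more than the libraries of a day. RN7SL2, the 7SL RNA of the signal recognition particle, was at 12.6 and 16.3 CPM and then at 34.8 and 29.1 CPM, and it was not called in the fit of all 8 Jurkat libraries. ANKRD36C, which has near copies, and KANK4 had log2 changes of 1.10 and 1.04. ANKRD36C lost its call without replicate 2 of day 10, and KANK4 without either library of that day.

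**Figure D4:**
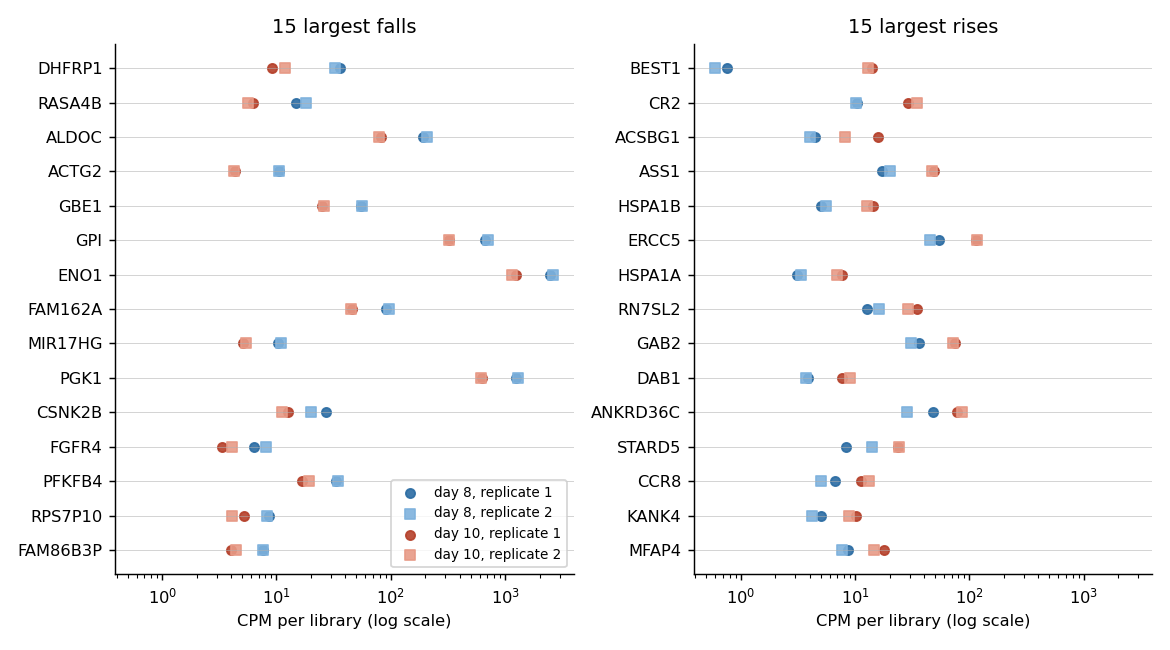
CPM of each of the 4 libraries on a log axis for the 15 largest falls and the 15 largest rises among called genes with a mean of at least 5 CPM. ALDOC, GBE1, GPI, ENO1, FAM162A and PGK1 have both libraries of a day close together, and BEST1 rises from under 1 CPM.

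BEST1, a chloride channel gene, had the largest rise among genes with a mean of at least 5 CPM, from 0.752 and 0.591 CPM to 13.9 and 13 CPM. It overlaps the ferritin gene FTH1 on the opposite strand, which was at 1046 and 1146 CPM at day 8 and at 893 and 866 CPM at day 10 and fell by 0.32 on the log2 scale (a call lost without replicate 2 of day 8 or either library of day 10), and without the strand setting the reads of the 2 genes cannot be told apart. ACSBG1, which overlaps IDH3A, STARD5, which overlaps IL16, and MFAP4, which overlaps MAPK7, are uncertain for the same reason, with log2 changes of 1.49, 1.09 and 1.01. DAB1 (1.13) overlaps OMA1 on its own strand. Leaving out 1 library of day 10 ended the calls of ACSBG1 and MFAP4 (replicate 1), of DAB1 (replicate 2) and of STARD5 (either).

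ERCC5, a nuclease of DNA repair, rose from 53.8 and 44.9 to 113 and 118 CPM, but the read-through gene BIVM-ERCC5, which contains it, had 2460 and 2714 counts at day 8 and 0 and 0 at day 10, a level at least 766-fold lower when 0 is set to 3 counts in each library. The sum of both was 131 and 125 CPM at day 8 and 113 and 118 CPM at day 10, a log2 change of -0.15. SLX1A and SLX1A-SULT1A3 changed by 0.65 and -1.11, and their sum by -0.17; the call of SLX1A was lost without replicate 2 of day 8 or either library of day 10. Of 72 tested read-through genes 9 were called, 8 of them lower at day 10 and 1 higher. Over all genes tested 3.87% were called, and 1.77% were called lower. What part the assignment of reads between overlapping gene models has in these values was not tested.

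Copies of other genes are among the falls. DHFRP1, a processed pseudogene, was at 36.1 and 32.5 CPM at day 8 and at 9.2 and 11.9 CPM at day 10. RASA4B, FAM86B3P and RPS7P10 are copies too, with log2 changes of -1.48, -0.86 and -0.88, and CSNK2B (-0.99) overlaps GPANK1 and LY6G5B. The calls of FAM86B3P and RPS7P10 were lost without either library of day 10, that of FAM86B3P also without replicate 2 of day 8, and that of CSNK2B without replicate 2 of day 10. ACTG2, smooth muscle γ-actin, was at 10.6 and 10.4 CPM and then at 4.31 and 4.23 CPM, and the abundant ACTB, which resembles it, fell by 0.46, from 4139 and 4355 to 3183 and 2979 CPM. FGFR4, a growth factor receptor, was at 6.33 and 8.06 CPM at day 8 and at 3.32 and 4.06 CPM at day 10, and its call was lost without replicate 2 of day 8 or either library of day 10. ACTB was 1 of 3 falls against 1 rise among 33 cytoskeleton genes, where 3.87% of all genes tested were called. That count was 1 without either library of day 10 and 2 without replicate 2 of day 8, and ACTB lost its call without replicate 2 of day 10.

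The same interval was sampled with the hairpin against SH2D1A, in libraries of its own that lie in the same tables as the control libraries. There 2366 of 19207 genes were called (12.3%), with 6.05% higher and 6.27% lower at day 10. The count was 1049 and 1070 when replicate 1 or 2 of day 8 of that arm was left out, alternatives chosen after seeing the data. Of the 727 genes called in the control cells and tested there, 677 (93.1%) had the same direction, against 68.2% of all 18545 genes tested in both, and 462 were called in both with the same direction against 1 with the opposite one. Since both arms of a day lie in 1 table, a likeness between the arms does not separate day from table.

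In that arm glycolysis had 14 falls of 23 and a median of -0.32, MYC targets and ribosome assembly 36 falls of 42 and -0.51, G2 and mitosis 30 rises of 50 and 0.30, and sterol and fatty acid synthesis 16 falls and 1 rise of 34 and -0.25. ALDOC changed by -1.40, ENO1 by -0.95, MKI67 by 0.51 and CR2 by 1.61 on the log2 scale. Other lists had other counts there. The hypoxia list, with 8 falls in the control cells, had 3 falls and 1 rise of 31 and a median of -0.03. Heat shock and chaperones had 1 rise and 12 falls of 28, with HSPA8 at -0.46 and DNAJB1 at -0.15, and S phase and replication had 1 rise and 21 falls of 52. No member of these lists was called by the test of the difference between the arms that follows. PFKFB4, at -0.05, BNIP3, at 0.05, HSPA1B, at 0.46, and OAS3, at 0.01, were not called there.

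The test of the difference between the arms called 4 of 20099 genes (0.0199%): HSPA5, ERCC5 and BEST1 with the higher change in the control cells (0.0149%) and WSB1 with the lower (0.00498%). HSPA5, the chaperone BiP of the endoplasmic reticulum, had 149 and 158 CPM at day 8 and 166 and 158 CPM at day 10 with sh-NC, and 247 and 240 CPM and then 147 and 134 CPM with sh-SH2D1A (log2 difference 0.87 ± 0.09 SE, edgeR adjusted p = 0.0144). WSB1, a substrate adaptor of a ubiquitin ligase, had 319 and 339 CPM and then 317 and 333 CPM with sh-NC, against 180 and 180 CPM and then 313 and 301 CPM with sh-SH2D1A (log2 difference -0.79 ± 0.08 SE). In both genes the control libraries of the 2 days overlapped, and those of the other arm did not. None of the 23 glycolysis genes, 42 MYC and ribosome genes or 50 mitotic genes was called by this edgeR test, in which 1799 genes had an unadjusted p under 0.05; DESeq2 called 129 genes in all. The 4 calls were 9 and 8 without replicate 1 or 2 of control day 8, 17 and 11 without those of sh-SH2D1A day 8, and 10 without replicate 1 of control day 10. ERCC5 was lost without replicate 2 of control day 10 or either library of sh-SH2D1A day 10. With sh-SH2D1A it was at 105 and 98.5 CPM at day 8 and at 121 and 118 CPM at day 10.

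The control cells of 6T-CEM, a second T-ALL line, were sampled from day 5 to day 10, so that the line and the length of the interval cannot be told apart. Of 720 genes called in control Jurkat and tested there, 239 (33.2%) had the same direction, against 43.1% of all 18211 genes tested in both, and 366 were called in both with opposite directions against 121 with the same one. The difference between the lines was called for 7290 of 20800 genes (35%), 17.4% with the higher change in Jurkat and 17.7% with the lower. Within 6T-CEM 44.9% of genes were called between its days, 22.9% higher and 22% lower.

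Glycolysis fell in both lines, with 17 falls and 2 rises of its genes in 6T-CEM and a median of -0.38. MYC targets and ribosome assembly went opposite ways, with 39 rises and no fall in 6T-CEM and a median of 0.81, and the difference between the lines was called for 40 of 42. G2 and mitosis had 3 rises and 35 falls there, a median of -0.54, and a called difference for 46 of 50. MYC rose in 6T-CEM by 1.17 on the log2 scale. CHI3L2 had a log2 change of -0.71 there.

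**Figure D5:**
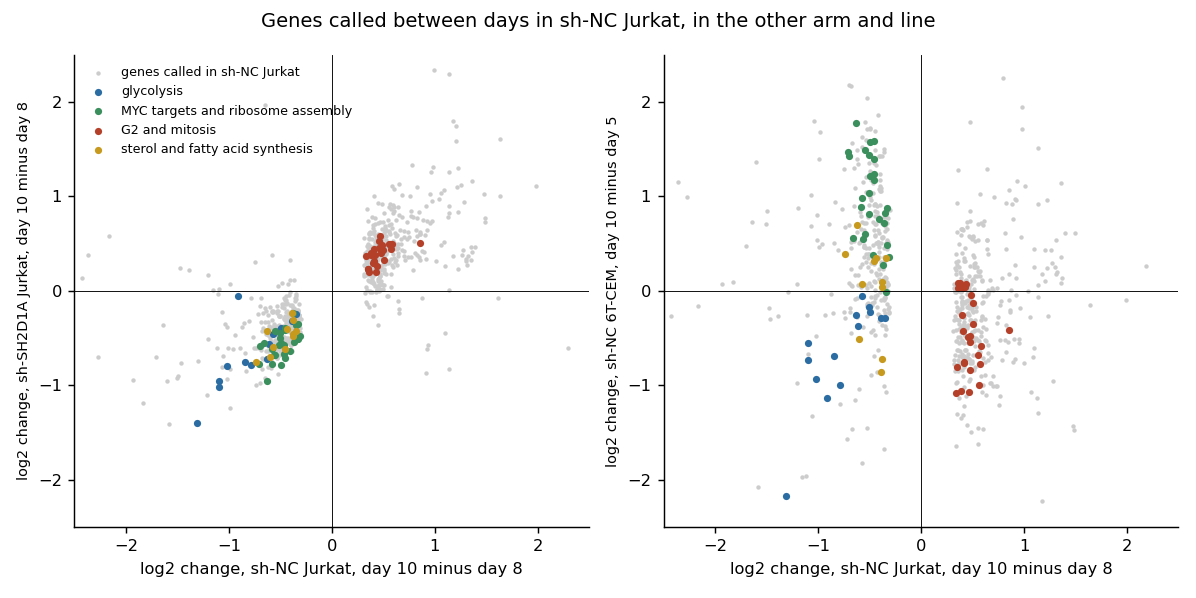
Genes called between day 8 and day 10 in sh-NC Jurkat, with that log2 change on the horizontal axis and on the vertical axis the log2 change in sh-SH2D1A Jurkat (left) or in sh-NC 6T-CEM from day 5 to day 10 (right). Members of 4 lists are coloured, and 14 and 17 genes beyond 2.5 on either axis are outside the left and right panels. On the left the coloured lists keep their side, and on the right the MYC and ribosome assembly genes lie above 0 and most mitotic genes below it.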

How the data were processed

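Whole-number counts of reads per Ensembl gene were deposited by the authors, unnormalised, in 1 table per line and day. HISAT2 2.2.0, StringTie and hg38 are named in the submitters' processing notes. For the annotation, the strand setting and the counting step, the sources used here give nothing. Both Jurkat tables list 64252 identifiers. A symbol was found for 40995, and GENCODE 29, which holds 56591, gave positions and overlaps. Identifiers with no symbol took 3.11 to 3.20% of the counts of the 4 libraries and stayed in the fit.

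Genes that passed filterByExpr (minimum count 10) were fitted with edgeR 4.0.16 in R 4.3.3, after TMM scaling, by its quasi-likelihood functions, and each test was two-sided. P-values were adjusted after Benjamini and Hochberg over all tested genes, and "rose" and "fell" mean an adjusted p under 0.05. CPM carry the TMM scaling, and the SE is the size of the log2 change divided by the root of F. Differences between arms or lines were tested as interactions over 8 libraries. The procedure was tested on simulated data, and DESeq2 1.42.0 was an alternative.

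Members, the 52 gene lists and motifs were chosen with earlier results of these data known. Named genes are SH2D1A, CHI3L2, the 15 largest rises and falls (symbol, no read-through gene, mean of at least 5 CPM, days that do not overlap), the leading members of each list, and members whose role is explained. Some members are not reported here.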

Additional observations from a re-analysis of the deposited data

Results flagged for a closer look

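The day change differed between the sh-NC and sh-SH2D1A arms of Jurkat for 4 genes by the test of that difference. They are BEST1, which overlaps FTH1, and WSB1, with a difference of -0.79 on the log2 scale (sh-NC minus sh-SH2D1A), HSPA5 with 0.87 and ERCC5 with 1.00, the last of which shares reads with BIVM-ERCC5.

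Between control Jurkat and control 6T-CEM the day change differed for 7290 genes. The 5 largest negative differences were those of ZNF497, RPSAP47 (-5.11), PTPRCAP (-4.79), BOLA2 (-4.37) and RPL39P3 (-4.34), and the 5 largest positive ones those of LINC00624 (2.60), TRPM5 (2.67), SH3BP1 (2.83), TRBV28 (2.85) and ACSBG1 (2.97), all on the log2 scale and with edgeR adjusted p under the threshold. ZNF497 had no count in either library of 6T-CEM at day 5, so its difference is given as a bound, -7.59 or further from 0, with 0 set to 3 counts in each library. PTPRCAP was at 0 and 2.94 CPM there and was not called by DESeq2. RPSAP47 (0.235 and 0.363 CPM), BOLA2 (0.839 and 1.31 CPM) and RPL39P3 (1.78 and 1.78 CPM) were also low only in 6T-CEM at day 5. What part the assignment of reads between gene copies, or a difference between the tables, has in these values was not tested. In TRBV28 the Jurkat libraries of day 8 lay far apart, at 74.9 and 383 CPM against 402 and 357 CPM at day 10, and its difference was 2.12 without replicate 1 and 4.47 without replicate 2 of that day. SH3BP1 was at 34.6 and 81.9 CPM in Jurkat at day 10, and its difference was 2.08 without replicate 2 of that day. ACSBG1 was at 15.9 and 8.23 CPM in Jurkat at day 10 and at 10 and 2.47 CPM in 6T-CEM at day 5, its difference was 1.65 without replicate 1 of the latter, and it overlaps IDH3A on the opposite strand. LINC00624 had 4.18 and 2.06 CPM in Jurkat at day 8.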

How the results depend on the processing

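The 737 calls between the days of control Jurkat were 102 at a 2-fold threshold, 94 at an adjusted p of 0.01, 1375 by DESeq2, 0 without a filter on low counts and 1261 with all 8 Jurkat libraries in the fit. Leaving out single libraries gave 307 to 1065 calls. The 4 calls of the difference between the arms were 1 at 2-fold, 0 at an adjusted p of 0.01, 129 by DESeq2, 0 without the filter (2158 at an unadjusted p under 0.05), 1 with all 16 libraries, and 4 to 17 with single libraries left out. The 7290 calls of the difference between the lines were 2731 at 2-fold and 5552 to 7342 with single libraries left out. The cause of these differences was not tested.

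Without the filter every call between the days of control Jurkat was lost, in the 38 lists that had at least 1 and among the named genes. Over their alternatives 443 of 624 list counts stayed within 1.5 times, and 1933 of 2268 values of named genes kept their side of the threshold; 324 lost a call, 11 gained one and no called value changed sign. Each fit with a library left out borrows the spread of its group from the remaining groups.

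The equal replicate numbers of the days share only a number: deviations from the group means correlated at 0.0491 across genes. With the replicate number as a block the counts were 695, 4 and 7252.

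With 2 libraries a day, small changes of genes with few counts are the least certain: called genes had a median of 65.7 CPM (higher) or 52.2 CPM (lower), against 15.8 CPM over all genes tested.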

Other observations

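Gene families picked by symbol after the values had been seen, in both directions, add detail to control Jurkat, in which 3.87% of all tested genes were called. Among division genes 5 of 34 kinesin heavy chains rose, with 9 of the 34 negative. Of 21 centromere proteins 3 rose (CENPE by 0.55, CENPF by 0.50 and CENPA by 0.44 on the log2 scale). However, 10 of the 21 had a negative change, and their median was 0.045. A further 3 rises were among 19 condensin and cohesin genes (NCAPD3, ESPL1 and SMC1A, by 0.41, 0.39 and 0.32), with 4 of the 19 negative. None of these families had a fall. Of 41 enzymes that modify transfer or ribosomal RNA 7 fell and none rose, among them the pseudouridine synthases PUS7 (log2 change -0.70 ± 0.11 SE, edgeR adjusted p = 0.0102) and PUS1 (-0.62). Of 92 translation factors and their partners 6 fell, with EIF3B at -0.45 and EIF4A1, the helicase that unwinds message leaders, at -0.38. Of 37 aminoacyl-tRNA synthetases 3 fell, of 19 subunits of RNA polymerases I and III 3 fell, and of 78 mitochondrial ribosomal proteins 4 fell, with 67 of the 78 negative. All 12 genes of the ARP2/3 complex and actin capping were negative, and ARPC4, ACTR3 and ARPC5, of the complex that branches actin filaments, fell by 0.57, 0.45 and 0.34. Of the genes named here, CENPE, CENPF, CENPA, NCAPD3, ESPL1, SMC1A, PUS1, EIF3B, EIF4A1, ACTR3 and ARPC5 lost their calls without replicate 1 or 2 of day 10, CENPF, CENPA, ESPL1, SMC1A, EIF4A1 and ARPC5 also without replicate 2 of day 8, and CENPA also without its replicate 1. These families were chosen for what they showed, and their counts are a description.

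Gene length differed between the directions, a difference that was not tested. The median span of a gene from its first to its last base was 40.9 kb for the genes that rose, 16.7 kb for those that fell and 21.7 kb over all tested genes with a position. YPEL1 and the butyrophilin BTN3A2 rose by 0.57 and 0.47 on the log2 scale.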
